A study of Homo sapiens with 6 samples.

Results

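The TRIM genes encode the tripartite motif family of ubiquitin ligases, and their transcripts were compared in ZR-75-30 cells infected with a CDK12 lentivirus or an empty one. Members were the rows whose symbol is TRIM, a number and at most 1 further letter: 72 of the 26364 symbols listed. Of these, 46 had 10 or more counts in at least 3 libraries and are described by value, and the other 26 are given by their counts near the end. ZR-75-30 is an established line from a human breast adenocarcinoma, labelled as epithelial. RNA sequencing covered 6 libraries. The 3 control libraries came from cells infected with the lentivirus pLVX, and the 3 CDK12 libraries from cells infected with pLVX-CDK12, so both groups carry a virus and differ in its insert. The labels name no promoter for the insert, no clone and no time after infection, and give no sign that the replicates were infected apart, so p-values measure the spread between these libraries only.

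A TRIM protein typically carries a RING finger, which brings a ubiquitin-loaded E2 enzyme to a substrate, followed by B-box zinc fingers and a coiled coil through which the proteins pair. The domain at the far end picks the substrate and divides the family into classes: SPRY domains in many antiviral members, PHD fingers with bromodomains in chromatin regulators, NHL repeats, COS boxes that bind microtubules, and others. Several SPRY members are themselves induced by interferon and act in the sensing or restriction of viruses, while other members regulate transcription, the cytoskeleton, protein turnover or cell polarity.

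CDK12 itself was at 79.0, 81.8 and 72.8 CPM in the controls (CPM is a gene's count scaled to the size of its library) and at 2009, 2240 and 2124 CPM in the CDK12 libraries, so each library matched its label (the exact two-sided permutation test gives p = 0.1, the smallest that 3 against 3 libraries allow). Libraries held 21178163 to 26543653 counts. A gene with 0 reads in a library could still have stood at up to 3 counts there, or 0.112 to 0.144 CPM, for counting error only. The luminal markers ERBB2, KRT8, KRT18, KRT19, EPCAM, GATA3, ESR1 and CDH1 were all present, from 17.2 CPM for CDH1 to 8656 CPM for ERBB2 in controls. Of these 8, 4 fell and 0 rose, or 50% lower beside 18.9% of all genes tested. For 6 of the 8 every CDK12 library lay below every control, and for 1 above, beside 3455 and 3238 of all 14665 genes tested. Of 9 markers of other cell types, KRT5, KRT14, CD3E, CD79A and PECAM1 did not pass the filter on low counts, and the 9 summed to 51.6 to 56.8 CPM in controls and 62.4 to 73.7 CPM in CDK12 libraries, most of it COL1A1, which rose, while PTPRC and COL3A1 fell. Of the 4 of these that were tested, 25% rose and 50% fell, beside 16.2% and 18.9% of all genes. The part of these markers in the TRIM results was not tested. Control replicate 1 stood apart from the other controls in interferon-stimulated genes: the mean log2 CPM of 15 such genes was 5.68 there, 4.94 and 4.82 in control replicates 2 and 3, and 2.54 to 2.62 in the CDK12 libraries. Results on interferon-inducible TRIM genes are therefore given with and without that library.

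TRIM transcripts were more often lower than higher in the CDK12 libraries. Of the 45 reported members that were tested, 17 fell, 3 rose and 25 did not pass a Benjamini-Hochberg adjusted p of 0.05 (edgeR's quasi-likelihood test, adjusted over all 14665 genes tested). That is 37.8% lower and 6.67% higher, beside 18.9% lower and 16.2% higher among all genes tested, or 44.4% called beside 35.1%. The median log2 fold change was -0.06 over the members and 0.00 over all genes. The changes were small: TRIM29 alone reached 2-fold. In bulk RNA, fewer cells of a kind and less RNA per cell cannot be told apart. The counts move with the scaling: with upper-quartile factors 11 members were lower and 6 higher, and with total counts 11 and 7, so that higher members were 15% of the calls with TMM scaling, 35.3% with upper-quartile factors and 38.9% with total counts. Over all genes that share moved likewise, from 46.1% to 59.6% and 61.7%. Without control replicate 1, 11 of the 45 were lower and 2 higher, beside 2265 lower and 1857 higher of 14908 genes.

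The libraries of the 2 groups did not overlap for 25 of the 45 members: 16 of the 17 that fell, 2 of the 3 that rose and 7 that did not pass (TRIM58, TRIM67, TRIM68, TRIM36, TRIM66, TRIM52 and TRIM4). Among all genes tested, 45.6% did not overlap. Under each of the 14 alternatives other than a test against a fold of 1.2, 11 members passed the threshold, 10 lower and 1 higher. TRIM29, TRIM25, TRIM14, TRIM8, TRIM2, TRIM21, TRIM62, TRIM16, TRIM35 and TRIM28 fell, and TRIM23 rose. The share of all genes that passed under each was not counted, and the alternatives draw on the same libraries. The other 9 calls were lost under 1 or more of those alternatives. Against a fold of 1.2, TRIM29 passed and no other member did. Among all 14665 genes tested, 479 were lower (3.27%) and 459 higher in that test.

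**Figure D1:**
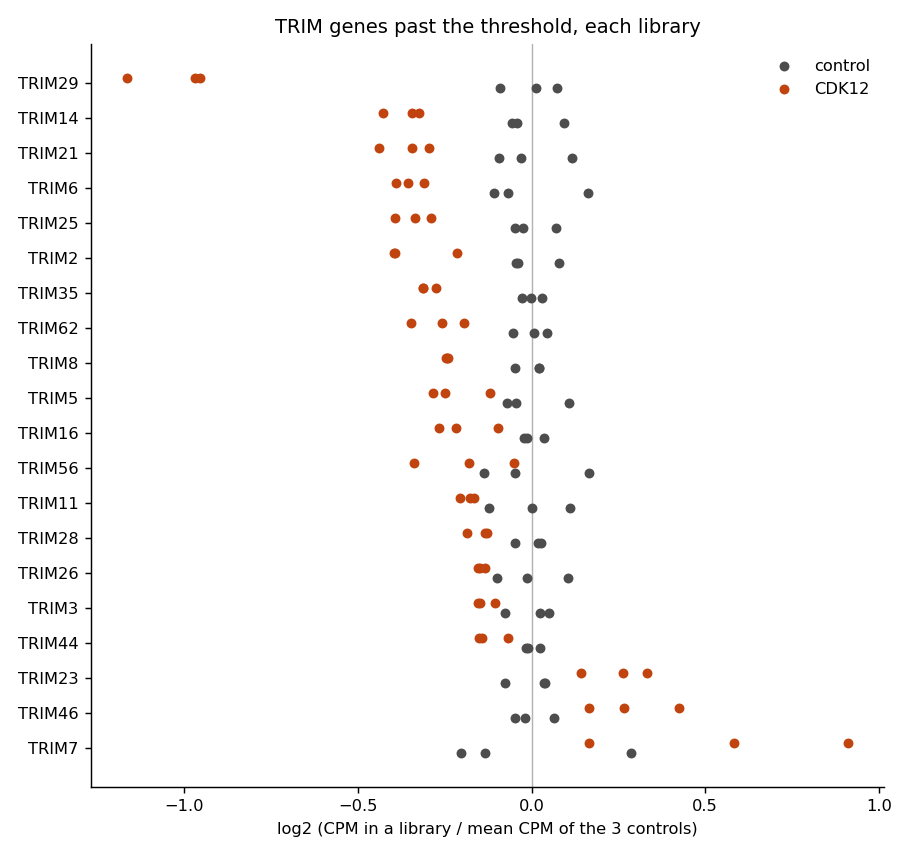
Each row is a TRIM gene past the threshold and each point a library, placed by the log2 of its CPM over the mean of the 3 controls (grey, control; orange, CDK12). The CDK12 points of TRIM29 lie farthest to the left, those of the 3 members that rose lie to the right of 0, and of these 20 genes TRIM7 and TRIM56 have groups that overlap.

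Of the 9 reported interferon-inducible members, 6 fell (66.7%, beside 18.9% of all genes), and by little. With upper-quartile factors, with total counts or without control replicate 1 the count was 3 of 9. The share of all genes lower was 14.6%, 14.1% and 15.2% under these settings. The list of such genes names 11 TRIM genes. TRIM25, TRIM14, TRIM21, TRIM26, TRIM5 and TRIM56 fell, and TRIM22, TRIM38 and TRIM34 did not pass the test. Their median log2 fold change was -0.19. All 15 reference interferon-stimulated genes of other families fell, with a median of -2.70. They ranged from -5.38 for IFI44L to -0.46 for STAT2. Both lists were chosen with earlier results of these data known, so the difference between them is a description. The promoters of 4 of the fallen members are shown because they hold the paired GAAA blocks, GAAANNGAAA on either strand, that make up the core of the interferon-stimulated response element. Each sequence is the RefSeq window of 250 bases before and 50 after the gene's start (GRCh38.p14, printed 5′ to 3′ on the gene's strand, which is the minus strand for all 4), and capitals mark the motif; they come from a newer build than the hg19 alignment and are shown for their letters only. TRIM14 lies at chr9:98119173-98119472, TRIM21 at chr11:4393653-4393952, TRIM26 at chr6:30213357-30213656 and TRIM5 at chr11:5685025-5685324.
TRIM14: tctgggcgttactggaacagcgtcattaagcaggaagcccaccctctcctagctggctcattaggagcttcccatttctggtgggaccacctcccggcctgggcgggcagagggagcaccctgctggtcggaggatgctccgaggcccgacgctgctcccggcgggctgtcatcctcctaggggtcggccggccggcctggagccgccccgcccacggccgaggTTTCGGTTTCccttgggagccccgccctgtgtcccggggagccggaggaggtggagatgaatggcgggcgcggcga
TRIM21: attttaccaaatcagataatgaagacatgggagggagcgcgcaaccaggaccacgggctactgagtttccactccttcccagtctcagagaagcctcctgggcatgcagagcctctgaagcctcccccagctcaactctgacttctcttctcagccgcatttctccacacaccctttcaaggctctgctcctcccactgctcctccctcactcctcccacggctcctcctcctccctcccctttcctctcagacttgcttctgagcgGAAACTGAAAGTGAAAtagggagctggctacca
TRIM26: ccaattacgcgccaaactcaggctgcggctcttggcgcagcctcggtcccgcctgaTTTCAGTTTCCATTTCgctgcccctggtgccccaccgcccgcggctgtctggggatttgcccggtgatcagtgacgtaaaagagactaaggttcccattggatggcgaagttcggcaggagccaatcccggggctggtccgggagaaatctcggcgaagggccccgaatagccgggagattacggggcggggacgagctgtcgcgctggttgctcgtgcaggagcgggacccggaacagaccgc
TRIM5: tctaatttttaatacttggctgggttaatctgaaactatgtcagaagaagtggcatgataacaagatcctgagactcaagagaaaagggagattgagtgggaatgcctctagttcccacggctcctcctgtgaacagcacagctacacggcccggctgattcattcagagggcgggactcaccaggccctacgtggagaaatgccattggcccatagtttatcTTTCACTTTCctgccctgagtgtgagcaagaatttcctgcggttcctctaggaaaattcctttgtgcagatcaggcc

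The motif begins 26 bases before the start in TRIM14 and 27 before it in TRIM5. In TRIM21 there are 2 matches that share a GAAA block, the first at 18 bases past the start, and in TRIM26 there are 2 that share a block, the first at 194 bases before the start.

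TRIM25, the ligase that attaches ubiquitin to the RNA sensor RIG-I, was at 291, 272 and 268 CPM in the controls and at 211, 226 and 219 CPM in the CDK12 libraries. It fell 1.27-fold without overlap (log2 fold change -0.34 ± 0.04 SE, adjusted p = 5.59e-07). TRIM14, a mitochondrial adaptor of the same pathway that lacks a RING finger, was at 63.3, 57.1 and 57.6 CPM in controls against 44.1, 46.8 and 47.4 CPM. Its fall was of like size, 1.29-fold (log2 fold change -0.37 ± 0.05 SE, adjusted p = 6.09e-06). TRIM21, a cytosolic receptor for antibody bound to virus, was at 27.9, 24.1 and 25.2 CPM and then at 20.3, 20.97 and 19.0 CPM. It fell 1.28-fold (log2 fold change -0.36 ± 0.07 SE, adjusted p = 0.000218). In these genes every CDK12 library lay below every control, and control replicate 1 was the highest of all.

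TRIM26, TRIM5 and TRIM56 fell less. TRIM26, a regulator of the interferon response, was at 124, 108 and 114 CPM in controls and at 104, 104 and 105 CPM with CDK12, a log2 fold change of -0.15 ± 0.05 (SE, adjusted p = 0.0179). TRIM5, which restricts retroviruses by binding their capsids, was at 22.3, 20.1 and 19.7 CPM and then at 19.1, 17.4 and 17.0 CPM (log2 fold change -0.21 ± 0.07 SE, adjusted p = 0.0234). For both the groups lay close, with the highest CDK12 library just under the lowest control. TRIM56, which acts in the sensing of cytosolic DNA and RNA, was at 43.2, 35.0 and 37.3 CPM against 30.4, 33.9 and 37.2 CPM, and its groups overlapped (log2 fold change -0.19 ± 0.07 SE, adjusted p = 0.0426). TRIM22, a restriction factor of retroviruses and influenza virus, was at 76.1, 67.1 and 65.2 CPM in controls and 74.6, 72.1 and 67.9 CPM with CDK12, a log2 fold change of 0.04 ± 0.05 (SE). TRIM38, which limits Toll-like receptor signalling, had a log2 fold change of 0.06 ± 0.06 SE at 33.8 and 35.2 CPM. TRIM34 was near the limit of counting, with 20, 6 and 13 counts in controls and 12, 14 and 13 with CDK12.

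All 9 reported interferon-inducible members had their highest control value in control replicate 1, as had 12 of the 37 other reported members. The ratio of that library to the mean of the other controls was 2.16 for TRIM34 on its few counts, 1.195 for TRIM56 and 1.15 for TRIM22. It was 1.13 for TRIM21, 1.12 for both TRIM5 and TRIM26, 1.10 for TRIM14, 1.08 for TRIM25 and 1.02 for TRIM38. Without control replicate 1 the count of interferon-inducible members lower was 3, namely TRIM25, TRIM14 and TRIM21, and the median log2 fold change was -0.10, while all 15 reference genes stayed lower with a median of -2.38. The adjusted p without that library was 0.21 for TRIM26, 0.154 for TRIM5 and 0.342 for TRIM56. TRIM5 also missed the threshold without CDK12 replicate 2 (0.0692) or 3 (0.0863) and with the DESeq2 Wald test (0.0655). TRIM56 also missed it without CDK12 replicate 1 (0.226) or 2 (0.0688), with the DESeq2 Wald test (0.0935), with the replicate number as a block (0.0857) and with a filter of 1 CPM (0.0533). The same 3 remained called with upper-quartile factors and with total counts. Whether TRIM22 or TRIM38 differ in response from TRIM25 was not tested.

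**Figure D2:**
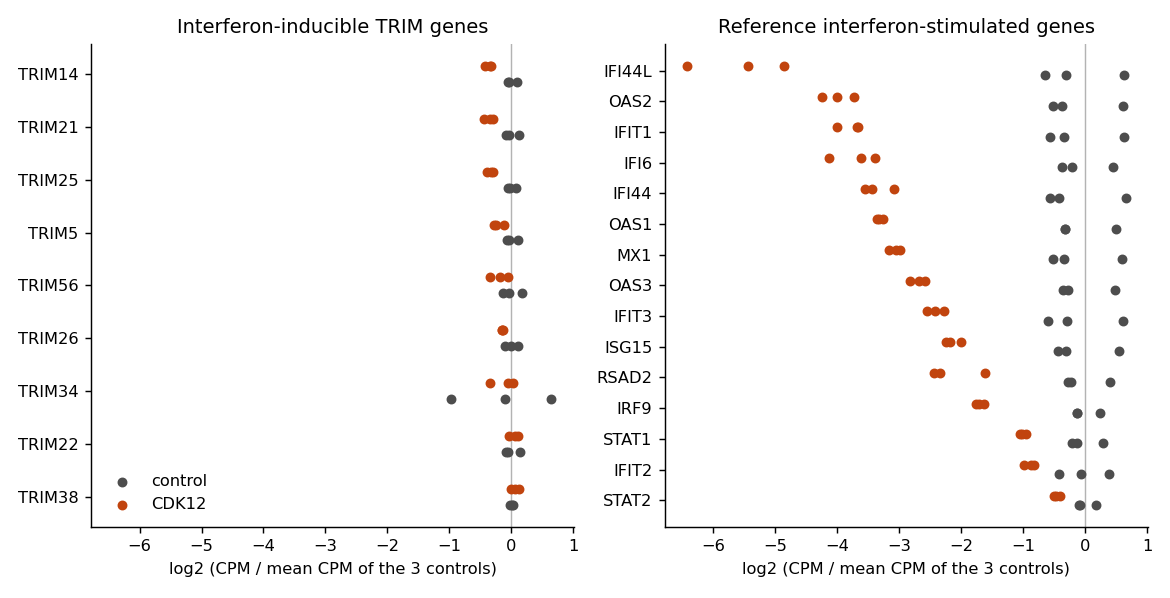
Points are libraries (grey, control; orange, CDK12), placed by log2 of the CPM over the control mean, for 9 interferon-inducible TRIM genes on the left and 15 reference interferon-stimulated genes on the right, on 1 shared scale. The fitted log2 fold changes run from -5.38 to -0.46 on the right and from -0.37 to 0.06 on the left, and control replicate 1 is the rightmost grey point in each row on the left. Both gene lists were chosen with earlier results of these data known.

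Among the other SPRY members, 5 fell and 1 rose. Of the whole SPRY class of 25, 44% were called, beside 35.1% of all genes. By direction, 40% were lower beside 18.9% of all genes, and 4% higher beside 16.2%. TRIM62, a regulator of mammary epithelial polarity also known as DEAR1, was at 33.0, 34.4 and 35.4 CPM in controls and at 26.9, 28.7 and 29.9 CPM with CDK12, a log2 fold change of -0.27 ± 0.06 (SE, adjusted p = 0.00115). TRIM16, which has no RING finger and takes part in clearing damaged lysosomes, was at 111, 110 and 115 CPM against 96.6, 93.3 and 105 CPM (-0.19 ± 0.05, adjusted p = 0.00204). TRIM35 was at 13.3, 12.8 and 13.0 CPM against 10.8, 10.5 and 10.5 CPM (-0.30 ± 0.08, adjusted p = 0.00435). The groups of these 3 genes did not overlap. TRIM16 has a near copy, TRIM16L, which averaged 79.8 ± 3.91 CPM in controls against 76.7 ± 1.43 CPM (SD, n = 3 per group) without passing (log2 fold change -0.06 ± 0.05 SE), and reads shared by the 2 copies make both counts uncertain.

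TRIM11 and TRIM6 fell less securely. TRIM11, a ligase that helps to clear misfolded proteins, was at 76.1, 69.7 and 82.0 CPM in controls and at 67.7, 67.2 and 65.8 CPM with CDK12, a log2 fold change of -0.18 ± 0.05 (SE, adjusted p = 0.00709, or 0.11 without control replicate 3). TRIM6, which builds free ubiquitin chains that activate the kinase IKK-epsilon, was at 4.17, 4.89 and 4.06 CPM against 3.53, 3.34 and 3.42 CPM (-0.34 ± 0.13, adjusted p = 0.0401). The TRIM6 call was lost under 11 of 15 alternatives, with an adjusted p of up to 0.631, and it was lost on leaving out any library but control replicate 3 (0.0561 to 0.168). TRIM7, whose product binds glycogenin, was the member with the steepest rise, on 25, 24 and 38 counts in controls and 64, 46 and 34 with CDK12. The groups overlapped (log2 fold change 0.58 ± 0.22 SE, adjusted p = 0.0358), and the call was lost without control replicate 1 (0.134), control replicate 2 (0.105), CDK12 replicate 1 (0.224) or CDK12 replicate 2 (0.0645), with the DESeq2 Wald test (0.13), with limma-voom (0.0547) and with the replicate number as a block (0.0706).

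The remaining 10 SPRY members besides TRIM16L did not pass. TRIM58 was below every control in each CDK12 library, at 1.67, 2.11 and 1.66 CPM against 1.41, 1.40 and 0.959 CPM (log2 fold change -0.51 ± 0.21 SE, adjusted p = 0.0542, or 0.0458 without CDK12 replicate 1). TRIM68, a coactivator of the androgen receptor, was above them, at 19.99, 21.1 and 19.7 CPM against 22.0, 23.2 and 22.4 CPM (0.16 ± 0.07, adjusted p = 0.0654), and passed with upper-quartile factors (0.023) and total counts (0.0195). TRIM41 (-0.14 ± 0.06), TRIM65 (-0.02 ± 0.06), TRIM27 (0.01 ± 0.04), TRIM39 (0.05 ± 0.07), TRIM4 (0.06 ± 0.05) and TRIM47 (0.10 ± 0.06) had log2 fold changes within 0.14 of 0, though TRIM41 passed without control replicate 2 (0.036). TRIM27, first known as a partner in a RET fusion gene, was the most abundant of these at 136 ± 3.75 and 137 ± 1.75 CPM. The scarce TRIM17 (0.12 ± 0.27) and TRIM72 (0.24 ± 0.26), a membrane repair gene of muscle, had 14 to 38 counts in each library.

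**Figure D3:**
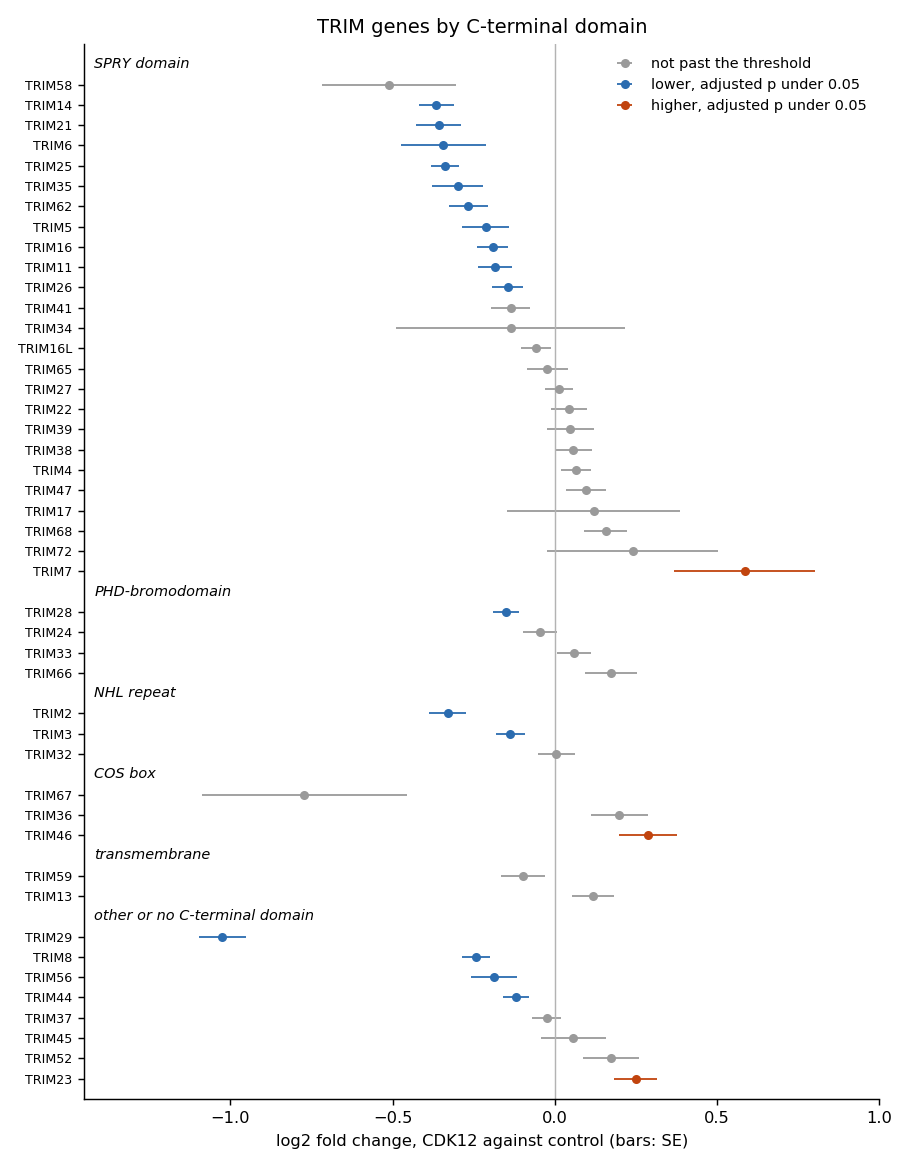
Points are log2 fold changes of the 45 tested TRIM genes, CDK12 against control, with bars of 1 SE, grouped by C-terminal domain (blue, lower; orange, higher; grey, not past the threshold). The SPRY class runs from -0.51 for TRIM58 to 0.58 for TRIM7, and TRIM29 at -1.03 lies apart from the rest of its class.

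In the class with PHD finger and bromodomain, 1 of 4 members fell, or 25% called beside 35.1% of all genes. By direction, 25% were lower beside 18.9% of all genes. TRIM28, the co-repressor KAP1 that KRAB zinc finger proteins bring to chromatin, was at 380, 363 and 382 CPM in controls and at 342, 330 and 343 CPM with CDK12. The 1.11-fold fall was without overlap (log2 fold change -0.15 ± 0.04 SE, adjusted p = 0.00451). Its relatives TRIM24, a coregulator of nuclear receptors (-0.05 ± 0.05), and TRIM33, which acts with SMAD proteins (0.06 ± 0.05), did not pass, though TRIM33 did without CDK12 replicate 1 (0.0299). TRIM66 was above the controls in each CDK12 library, at 11.2 ± 0.55 and 12.7 ± 0.28 CPM (SD, n = 3 per group), without passing (0.17 ± 0.08, adjusted p = 0.0986, or 0.0446 with upper-quartile factors and 0.0388 with total counts). Of 13 partners of TRIM28 in silencing, 4 rose and 9 did not pass, or 30.8% called beside 35.1% of all genes. By direction, 30.8% were higher beside 16.2% of all genes, and 0% lower beside 18.9%. ATF7IP, which binds the histone methyltransferase SETDB1, rose from 115 ± 4.67 to 135 ± 3.70 CPM (adjusted p = 0.000165). FAM208A and MPHOSPH8, subunits of the HUSH complex, rose with log2 fold changes of 0.19 and 0.23, and CBX5, the gene of HP1 alpha, with 0.12. SETDB1 itself was at 92.8 and 96.3 CPM (adjusted p = 0.367). With upper-quartile factors or total counts 5 partners rose, and with the replicate number as a block 4 rose and 1 fell. Leaving out a library gave 3 to 5 higher, and the test against a fold of 1.2 gave 0.

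Of the members with NHL repeats, TRIM2 and TRIM3 fell and TRIM32 did not pass, or 66.7% called beside 35.1% of all genes. By direction, 66.7% were lower beside 18.9% of all genes. TRIM2, a ligase for neurofilament light chain in neurons, was at 52.0, 56.6 and 52.2 CPM in controls and at 40.8, 46.2 and 40.8 CPM with CDK12, a log2 fold change of -0.33 ± 0.06 (SE, adjusted p = 5.85e-05). TRIM3, its closest relative, was at 150, 138 and 148 CPM against 130, 131 and 135 CPM (-0.14 ± 0.04, adjusted p = 0.0153). Neither pair of groups overlapped, and TRIM3 did not pass with upper-quartile factors (0.0742) or total counts (0.0895), nor without control replicate 1 (0.106) or 3 (0.0771). TRIM32, a gene of limb-girdle muscular dystrophy, was at 35.9 ± 1.72 and 36.0 ± 0.76 CPM (log2 fold change 0.00 ± 0.06 SE). Its direction turned when control replicate 2 or CDK12 replicate 1 was left out.

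The COS box members under TRIM symbols were scarce, and of the 3 tested 1 rose and 2 did not pass. That is 33.3% called beside 35.1% of all genes, or 33.3% higher beside 16.2%. MID1, a COS box gene under another name, and its close relative MID2 averaged 24.6 and 49.3 CPM in controls and are described below. TRIM46, which bundles microtubules at the start of the axon, rose from 9.84, 9.11 and 9.29 CPM to 10.6, 11.3 and 12.6 CPM (log2 fold change 0.29 ± 0.09 SE, adjusted p = 0.014). Without CDK12 replicate 3 the adjusted p was 0.0897. TRIM36 was at 10.02, 9.21 and 9.70 CPM against 11.4, 10.3 and 11.5 CPM (0.20 ± 0.09, adjusted p = 0.0763), and passed with upper-quartile factors (0.0359), with total counts (0.0313) and without CDK12 replicate 2 (0.0489). TRIM67 had 17, 20 and 19 counts in controls and 18, 11 and 7 with CDK12 (-0.77 ± 0.32, adjusted p = 0.0571), and passed with limma-voom (0.0384) and without CDK12 replicate 1 (0.0182). TRIM9, a neuronal relative of TRIM67, had 10, 2 and 12 counts in controls and 10, 6 and 5 with CDK12 and did not pass the filter on low counts. TRIM13 (0.12 ± 0.07) and TRIM59 (-0.10 ± 0.07), anchored in membranes, did not pass.

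TRIM29 showed the largest change of any reported member. This gene, also called ATDC, encodes a protein without a RING finger that is abundant in basal and squamous epithelium and acts in the response to DNA damage. It was at 30.1, 26.9 and 28.9 CPM in controls and at 14.8, 12.8 and 14.6 CPM in the CDK12 libraries. The fall was 2.04-fold (log2 fold change -1.03 ± 0.07 SE, adjusted p = 9.76e-12). Under the 15 alternatives its log2 fold change ran from -1.07 to -0.96 and it passed in each. The basal keratin genes KRT5 and KRT14 were near 0 in both groups, at 0.032 and 0.071 CPM in controls.

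Of the other members of mixed or no C-terminal domain, TRIM8, TRIM44 and TRIM56 fell and TRIM23 rose. With TRIM29, 62.5% of the 8 in this class were called, beside 35.1% of all genes. By direction, 50% were lower beside 18.9% of all genes, and 12.5% higher beside 16.2%. TRIM8, a regulator of p53 and of NF-kappaB signalling, was at 135, 128 and 135 CPM in controls and 112, 112 and 112 CPM with CDK12, a log2 fold change of -0.24 ± 0.04 (SE, adjusted p = 5.63e-05). TRIM44, which has a ubiquitin-binding zinc finger in place of a RING, was at 182, 178 and 178 CPM against 162, 171 and 162 CPM (-0.12 ± 0.04, adjusted p = 0.0247). The TRIM44 call was lost with upper-quartile factors (0.118), total counts (0.142), and without control replicate 1 (0.107) or 3 (0.0584) or CDK12 replicate 1 (0.0653) or 3 (0.0801). TRIM23, which joins a RING ligase to an ARF GTPase domain, was at 23.4, 23.5 and 21.6 CPM against 25.2, 28.8 and 27.4 CPM, with every CDK12 library above the controls (0.25 ± 0.07, adjusted p = 0.00474). TRIM37, a ligase of centrosomes and peroxisomes, was at 119 ± 1.83 and 116 ± 5.05 CPM (-0.03 ± 0.04), and its sign turned with upper-quartile factors and total counts. TRIM45 (0.06 ± 0.10) and TRIM52 (0.17 ± 0.09) did not pass, though every CDK12 library was above the controls for TRIM52, which passed with total counts (0.0494). The antisense gene TRIM52-AS1, no member of the family, went from 3.95 ± 0.41 to 3.02 ± 0.02 CPM (log2 fold change -0.38, adjusted p = 0.0289), and without a stated strand setting the 2 genes' reads cannot be told apart.

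Members that lie side by side in the genome did not always share a call. On chromosome 11, TRIM5, TRIM6, TRIM34 and TRIM22 form a cluster in that order in the RefSeq annotation. TRIM5 and TRIM6 fell, while TRIM34 and TRIM22 had log2 fold changes of -0.14 ± 0.35 and 0.04 ± 0.05 without passing. The models of these genes overlap, and the read-through gene TRIM6-TRIM34, counted apart, had 1 count in control replicate 1 and 0 in the other libraries. TRIM26 fell beside TRIM39 (0.05), TRIM11 fell beside TRIM17 (0.12), and TRIM7 rose beside TRIM41 (-0.14), all values being log2 fold changes. The calls of TRIM5, TRIM6, TRIM26, TRIM11 and TRIM7 were each lost under 1 or more alternatives besides the test against a fold of 1.2. The difference between neighbours was not tested.

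Per length of exon, TRIM28 was the most abundant member in controls, at 127 CPM per kilobase, over TRIM25 at 48.3, TRIM27 at 45.8, TRIM3 at 42.1 and TRIM16L at 40.3. In controls the lowest library of TRIM28 was above the highest of any other member. The control libraries of TRIM25 and TRIM27 overlapped, as did those of TRIM3 and TRIM16L, so neither pair has a firm order. TRIM9 was lowest, at 0.0419 CPM per kilobase. In the CDK12 libraries every value of TRIM25 (mean 38.2 CPM per kilobase) lay below every value of TRIM27 (mean 46.2). Lengths are the union of exons of protein-coding transcripts in GENCODE 29, which may differ from the annotation the counts were made with. The 46 reported members summed to 2601 to 2713 CPM in controls and 2417 to 2451 CPM in CDK12 libraries, without overlap.

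**Figure D4:**
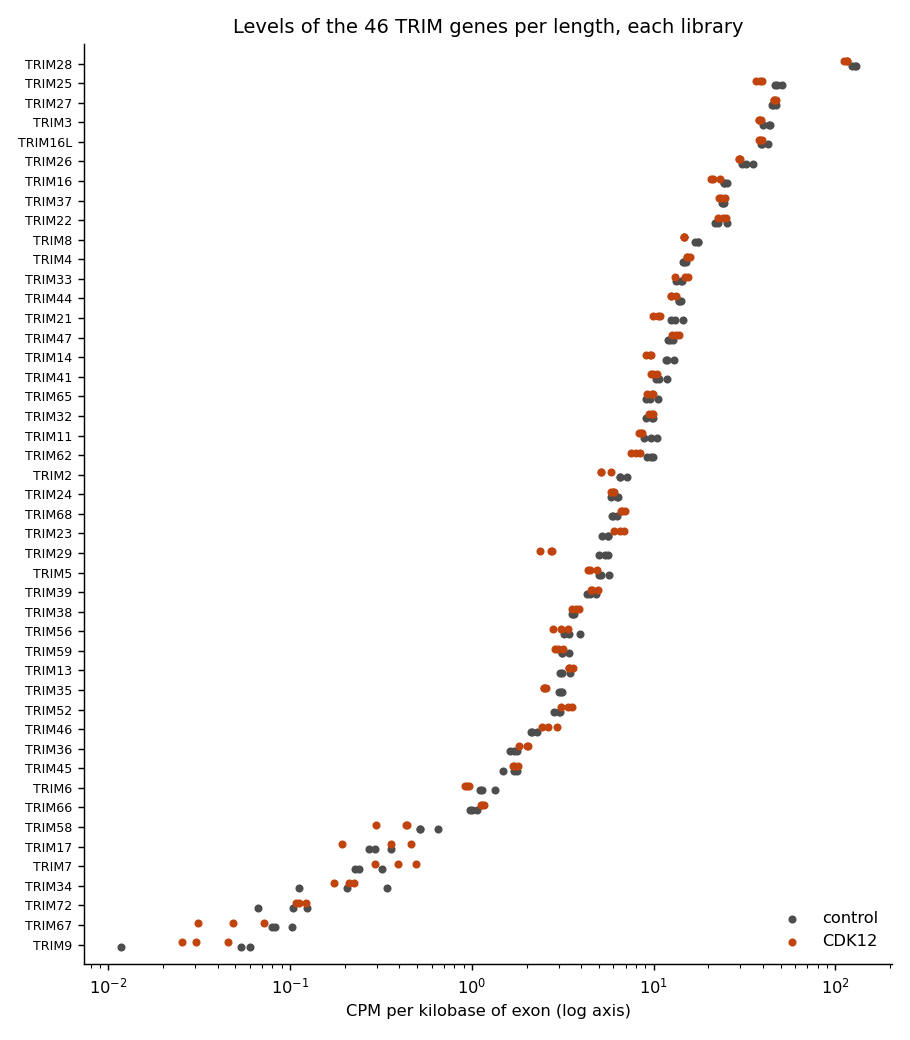
Rows are the 46 reported TRIM genes ordered by their mean control level, points are libraries (grey, control; orange, CDK12), and the log axis gives CPM per kilobase of exon. Levels span from 0.0419 for TRIM9 to 127 for TRIM28 in the control mean, and TRIM29 is the row with the widest gap between the groups among those above 1 CPM per kilobase.

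Of the 46 reported members, 34 had a promoter of 300 bases in the RefSeq table, and 8 of these (23.5%) held GAAANNGAAA on either strand, beside 3.65% of all 27305 promoters and 2.9% of those of genes tested. Of 12 reference interferon-stimulated genes with a promoter in the table, 8 held it. Among members that fell, 7 of 12 held the motif, among those that did not pass 1 of 18, and among those that rose 0 of 3. Of these 7, TRIM26, TRIM5 and TRIM44 lost their call with upper-quartile factors, with total counts and without control replicate 1. The share with the motif among all genes that fell or did not pass was not counted. The 8 members with the motif were TRIM14, TRIM21, TRIM26, TRIM5 and TRIM34 of the interferon-inducible list, and TRIM2, TRIM16 and TRIM44 outside it. The letters outside that list are GAAAAGGAAA at 217 bases before the start of TRIM2, GAAATAGAAA at 80 before that of TRIM16 and GAAAGGGAAA at 35 before that of TRIM44. TRIM25, TRIM56 and TRIM38, which are on the list, had no match in the window. The split by motif was looked at after the fold changes were known and is a description, since a match does not show that a factor binds. TRIM11, TRIM13, TRIM16L, TRIM22, TRIM24, TRIM27, TRIM28, TRIM29, TRIM35, TRIM4, TRIM45 and TRIM8 were not looked at.

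**Figure D5:**
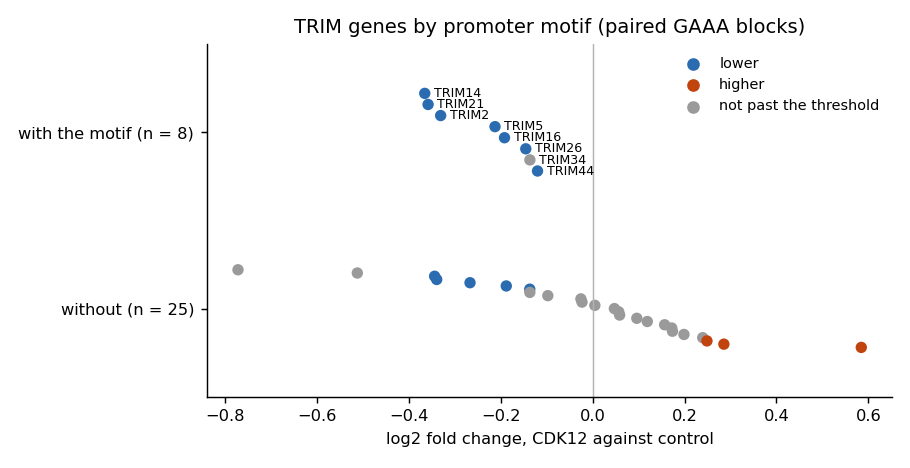
Points are the 33 tested TRIM genes with a promoter in the RefSeq table, placed by log2 fold change (CDK12 against control) in rows with and without the motif; the vertical spread within a row only parts the points. All 8 genes with the motif lie below 0, from -0.37 for TRIM14 to -0.12 for TRIM44, and those without it lie on both sides. TRIM34, on few counts, turns to 0.31 without control replicate 1.

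Genes of E2 proteins, which work with RING ligases in passing ubiquitin to a substrate, were measured beside the TRIM genes. Of 12 such genes, 4 rose and 8 did not pass, or 33.3% called beside 35.1% of all genes. By direction, 33.3% were higher beside 16.2% of all genes, and 0% lower beside 18.9%. UBE2W, which starts ubiquitin chains at protein ends, was at 28.1, 30.6 and 28.7 CPM in controls and at 35.5, 37.5 and 37.9 CPM with CDK12, a log2 fold change of 0.34 ± 0.06 (SE, adjusted p = 5.67e-05). UBE2E1, UBE2K and UBE2V2 rose with log2 fold changes of 0.17, 0.13 and 0.11. UBE2N, the E2 of lysine 63 chains, had -0.10 ± 0.04 (adjusted p = 0.084). Under each scaling 4 were higher, and the count was 2 on leaving out control replicate 1 or 3, or CDK12 replicate 2.

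Among 11 innate signalling partners, 2 fell and 1 rose, or 27.3% called beside 35.1% of all genes. DDX58, the gene of RIG-I and thus of the substrate of TRIM25, was at 67.0, 44.3 and 44.0 CPM in controls and at 19.9, 19.6 and 19.6 CPM with CDK12. Its log2 fold change was -1.39 ± 0.10 SE, against -0.34 for TRIM25, and control replicate 1 was again the highest control. TAB3, an adaptor of the kinase TAK1, fell (-0.18 ± 0.05, adjusted p = 0.00626), and the kinase gene TBK1 rose (0.13 ± 0.05, adjusted p = 0.0349). MAVS, ZC3HAV1, TMEM173, IKBKG, TAB2, MAP3K7, TRAF6 and IRF3 did not pass. With upper-quartile factors or total counts 2 were higher and 2 lower. The count of higher genes was 0 with the DESeq2 Wald test, with the loosest filter, and without control replicate 1 or 3 or CDK12 replicate 1 or 2.

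TRIM proteins with names of their own were also measured. PML, the organiser of nuclear bodies and an interferon-induced gene, was at 48.7, 45.0 and 45.9 CPM in controls and at 37.4, 39.0 and 38.7 CPM with CDK12, a log2 fold change of -0.28 ± 0.05 (SE, adjusted p = 0.000238). MID1, a microtubule-bound ligase with a COS box, fell from 24.6 ± 1.95 to 20.4 ± 2.50 CPM (-0.27 ± 0.08, adjusted p = 0.00884). Its close relative MID2 was at 49.3 ± 0.86 and 50.8 ± 1.57 CPM and did not pass (0.04 ± 0.05). MEFV, TRIML1 and TRIML2 did not pass the filter on low counts. Of the 3 tested genes 2 were lower, beside 18.9% of all genes. Without control replicate 1 or CDK12 replicate 3, 1 of the 3 was lower, beside 15.2% and 17.3% of all genes. Which of them kept its call was not recorded. Control replicate 1 was the highest control for both PML and MID1.

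The 26 members below 10 counts in at least 3 libraries reached at most 12 counts in any library, and 5 of them (TRIM51, TRIM61, TRIM64, TRIM73 and TRIM74) had none. TRIM31, TRIM54 and TRIM69 had totals of 52, 46 and 44 counts over the 6 libraries, and the other 23 had fewer than 20 each. TRIM31 and TRIM69 are on the interferon-inducible list. TRIM31 had 9, 3 and 9 counts in controls and 10, 9 and 12 with CDK12, and TRIM69 had 3, 9 and 7 against 12, 3 and 10. TRIM69 passed the edgeR filter, with a log2 fold change of 0.25 ± 0.48 SE. Among the others are near copies of each other, such as TRIM49, TRIM49B and TRIM49C or TRIM64, TRIM64B and TRIM64C, whose counts are uncertain. The other 25 were not tested, and differences in them would not be detectable at this depth.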

How the data were processed

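Polyadenylated RNA of 6 libraries, 3 per group, was sequenced with a strand-marking kit, per the labels' protocols. The files the authors deposited hold raw counts for each gene symbol, whole numbers with differing totals, made with CASAVA 1.8, STAR 2.6.0c and featureCounts of Subread 1.6.2 on hg19, per the submitters' processing notes. The sources used here do not give the annotation, strand setting or handling of multi-mapping reads, so near copies and overlapping genes are uncertain.

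The whole table was fitted with edgeR 4.0.16 (filterByExpr, minimum count 10 and minimum total 15; TMM scaling; quasi-likelihood F test, group as the only term), and p-values were adjusted by Benjamini-Hochberg over the 14665 genes tested, with a threshold of 0.05. CPM are TMM-scaled. The SE of a log2 fold change is its size over the square root of F. The script was tested on simulated data. Members, gene lists and the naming rule (every reported member, and called members with each library's value; up to 3 called genes of each other list, with MID2, SETDB1, UBE2N, UBE2V2, CBX5, TRIM52-AS1 and genes that did not pass named outside it) were chosen with earlier results of these data known. Alternatives were other scalings (size factors of DESeq2 1.42.0, upper quartile, total counts), 2 other filters, the DESeq2 Wald test, limma-voom (limma 3.58.1), the replicate number as a block, a test against a fold of 1.2, and leaving out each library. Promoters come from RefSeq (GRCh38.p14) and exon lengths from GENCODE 29. Protein sequences were not used here.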

Additional observations from a re-analysis of the deposited data

How the results depend on the processing

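With upper-quartile factors the counts of members higher and lower were 6 and 11, with 3 interferon-inducible members lower, and with total counts 7, 11 and 3; these scalings moved the median of all genes to 0.04 and 0.05. Against a fold of 1.2 the counts were 0, 1 and 0. Leaving out each library gave 2 to 3 higher, 11 to 17 lower and 3 to 6 interferon-inducible members lower, each minimum of the lower counts coming without control replicate 1. With the replicate number as a block 2 were higher, 15 lower and 5 interferon-inducible members lower. Libraries of the same number had correlations of -0.09, 0.10 and 0.06 over genes, so the numbers were not taken to pair them. The other filters, DESeq2 size factors, the DESeq2 Wald test and limma-voom left these counts within 1.5 times. No called member changed direction. Among members that did not pass, TRIM37 and TRIM65 turned to 0.011 and 0.013 with upper-quartile factors and to 0.016 and 0.019 with total counts. Leaving out a library turned the sign of 7 members, whose log2 fold changes ran from -0.17 to 0.42 for TRIM17, -0.00085 to 0.039 for TRIM27, -0.036 to 0.032 for TRIM32, -0.42 to 0.31 for TRIM34, -0.058 to 0.0034 for TRIM37, -0.011 to 0.11 for TRIM45 and -0.075 to 0.047 for TRIM65. The causes were not tested. Depth limits the members under 1 CPM most.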
